A study of Homo sapiens with 12 samples.

Results

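HL-60 cells kept in all-trans retinoic acid (ATRA) for 4 d were compared with HL-60 cells that had been in ATRA for 4 h. The members of the comparison were the 3 libraries labelled RA4d and the 3 labelled RA4h, 6 of the 12 libraries of the series, and it ran across every gene that had enough reads. HL-60 is a human promyelocytic leukemia line, and both groups were given 1 µM ATRA. The remaining libraries, cells before ATRA (0 h) and after 2 d, entered the estimate of spread between replicates, and their levels are set beside the contrast without a test. Both sides of the comparison had been exposed to ATRA, so the contrast covers what changed after the first hours of exposure. The groups also differed in days of culture; no untreated 4 d library was used here, and the length of treatment and the length of culture cannot be told apart. Nothing in the labels tells whether the 3 replicates of a time came from different cultures, and the p-values hold for the variation among these libraries, which may be technical.

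ATRA binds retinoic acid receptors, which sit on DNA with retinoid X receptors and turn from repressors into activators of transcription when they hold the ligand. In promyelocytic cells the ligand starts granulocyte maturation. A promyelocyte divides, makes ribosomes and packs primary (azurophilic) granules with myeloperoxidase and serine proteases. A maturing neutrophil stops dividing, later makes secondary and tertiary granules, and acquires the oxidase, the adhesion molecules and the receptors with which it finds, binds and takes up microbes. HL-60 cells are known for following this course in part only, with little expression of secondary granule proteins.

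Reads assigned to genes numbered 9981906 to 13658177 in the 4 h libraries and 9372996 to 10965224 in the 4 d libraries. Of 26364 genes listed, 12671 had enough reads to test, and they held 99.9% of gene reads. On principal components of the 6 libraries, the first axis carried 87.3% of the variance and separated the groups. The second carried 9.80% and set 4 h replicate 3 and 4 d replicate 1 apart from the other 4. In those same 2 libraries, GC-rich genes read higher than in their group mates, by 0.37 and 0.31 on the log2 scale per 10 points of GC content, against slopes of -0.28 to -0.09 in the others. The 4 h replicate 1 had reads in 22265 genes, against 15245 to 15798 in the other 5, and 28.1% of its reads were assigned to no counted feature. Levels are given as CPM, reads scaled to a common library size after correction between libraries. In 3 libraries a group, the order of values is replicate 1, 2, 3.

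At 4 d the cells had lost most of the transcripts of primary granule proteases, of MYC and of the machinery that copies DNA and builds ribosomes. They had gained those of surface receptors, adhesion molecules, lysosomal enzymes and interferon-stimulated genes. A gene was called at an adjusted p under 0.05 (quasi-likelihood test of edgeR, Benjamini-Hochberg over all tested genes, 8 residual degrees of freedom). By that rule 7668 of 12671 genes, 60.5%, differed between 4 d and 4 h. Higher at 4 d were 3765 genes (29.7%) and lower were 3903 (30.8%). In 8225 genes (64.9%) every library of one group lay above every library of the other. With both 4 h replicate 1 and 4 d replicate 1 left out 7126 genes were called, and with 4 h replicate 3 and 4 d replicate 1 left out 7146. The shares of 60.5%, 29.7% and 30.8% are the background for every count of list members given here. Among called genes at least 8-fold apart, 485 were higher and 190 lower at 4 d, and among those at least 32-fold apart 89 were higher and 29 lower. The median log2 fold change over all tested genes was -0.0027. The median GC content was 52.6% in genes called higher, 47.1% in genes called lower and 48.5% in the rest. With offsets for GC content and transcript length in each library 8554 genes were called.

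**Figure D1:**
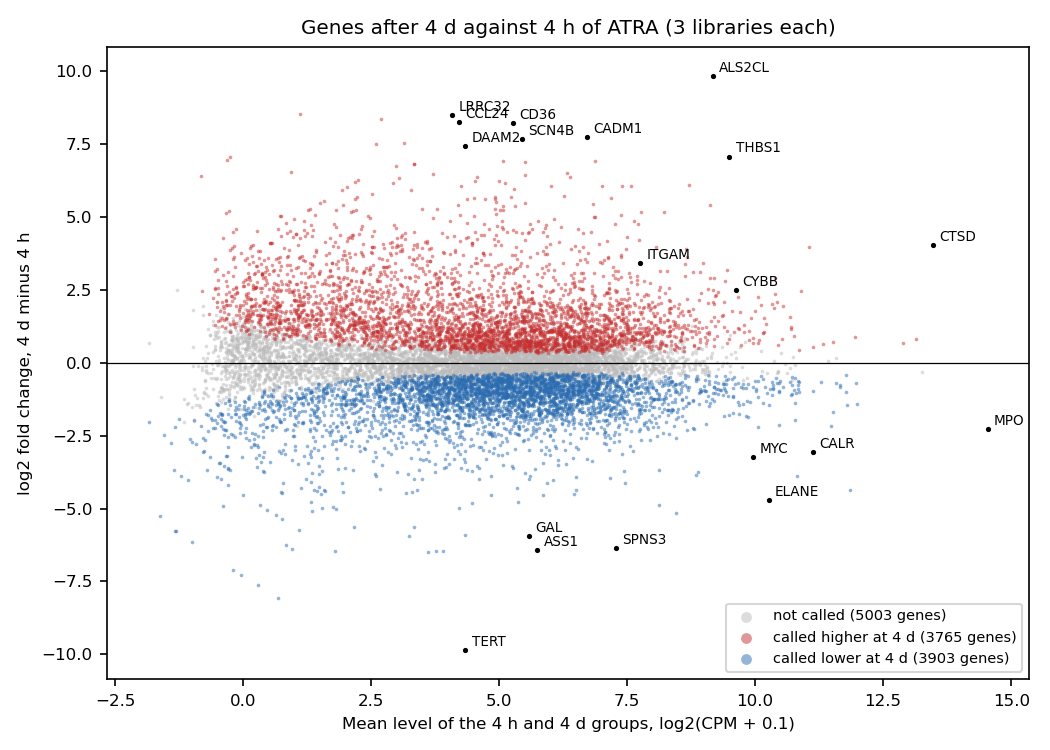
Log2 fold change at 4 d against 4 h (vertical axis) by mean level of both groups as log2(CPM + 0.1) (horizontal axis), 1 point per tested gene, with 3765 genes called higher in red, 3903 called lower in blue and the rest in grey. ALS2CL and TERT lie at the extremes of the named genes, and CTSD and MPO are the most abundant labelled genes that rose and fell.

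The time between the compared groups was represented by the 2 d libraries. Of the 2444 genes that were called higher, separate between groups and at 10 CPM or more on average, 2286 (93.5%) had a 2 d mean between the 4 h and the 4 d means. Of the 2990 such genes called lower, 2782 (93.0%) did. The 2 d mean lay beyond the 4 d mean in 100 of the higher and 86 of the lower genes, and on the far side of the 4 h mean in 58 and 122.

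The 15 genes that rose most included surface receptors, secreted proteins and a formin, and also a pseudogene and enzymes. ALS2CL, a relative of the RAB5 exchange factor alsin, was at 2.20, 0.653 and 1.02 CPM at 4 h and at 1508, 922 and 1024 CPM at 4 d. Its groups lay far apart, and the difference of 9.83 ± 0.40 (log2 fold change ± SE, adjusted p = 1.47e-09) put it first among genes at 10 CPM or more. THBS1, the secreted matrix protein thrombospondin-1, went from 13.9, 10.9 and 7.54 CPM to 1109, 1655 and 1535 CPM (log2 fold change 7.05 ± 0.29, adjusted p = 1.63e-09). CCR3, a receptor for eotaxins, stood at 2.20, 1.31 and 2.29 CPM at 4 h and at 249, 221 and 224 CPM at 4 d (6.91 ± 0.26, adjusted p = 8.51e-10). In both genes the 4 d libraries lay above every 4 h library, and they were closer to each other in CCR3 than in THBS1. A ligand of CCR3, CCL24 (eotaxin-2), also rose, from 0.183, 0 and 0.170 CPM to 22.7, 43.1 and 44.3 CPM.

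CD36, a scavenger receptor for oxidised lipids, apoptotic cells and thrombospondin, was at 0.641, 0 and 0.170 CPM at 4 h and at 66.2, 82.4 and 80.5 CPM at 4 d (8.20 ± 0.42, adjusted p = 6.32e-09). Replicate 1, where the most genes had reads, gave the highest of the low 4 h values. The same held for the adhesion molecule CADM1 (1.74, 0.653 and 0.593 CPM at 4 h against 159, 235 and 233 CPM at 4 d) and for the formin DAAM2, which builds actin filaments (0.733, 0 and 0 CPM against 44.4, 36.1 and 39.9 CPM). Low 4 h levels limit the precision of these folds. LRRC32, which holds latent TGF-beta at the surface, had 3 reads over the 4 h libraries and 1038 over those of 4 d, a 405-fold ratio with a 95% counting interval of 138 to 1966. FFAR3, a receptor for short-chain fatty acids, had 0 reads at 4 h and 128 at 4 d, and it was at least 49.9-fold higher when a floor of 3 reads for the 4 h group stood for the 0.

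The other genes among the 15 largest rises were SCN4B, HSPA7, LMTK3, BEAN1, CHST15, ATP10A and VSIG4, with log2 fold changes from 6.41 for VSIG4 to 7.67 for SCN4B. SCN4B is a sodium channel subunit, ATP10A a lipid flippase, CHST15 a sulfotransferase of chondroitin chains and VSIG4 a complement receptor of tissue macrophages. HSPA7 is a pseudogene close in sequence to HSPA6, so reads could be divided between them. Its 4 d values of 106, 42.2 and 51.7 CPM were uneven, with replicate 1 highest, against 0.458, 0.435 and 0.763 CPM at 4 h. Just outside the 15 were IQSEC3, DTX4, CYP27A1, CYP26A1 and GALNT12, at 6.36 to 6.15. In all, 17 called genes had 3 reads or fewer over the 4 h libraries.

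The genes that fell most included the reverse transcriptase of telomerase, myeloid progenitor genes and 2 transcripts of the B-cell lineage. TERT, the catalytic subunit that extends chromosome ends, was at 33.7, 38.6 and 48.6 CPM at 4 h and at 0.104, 0 and 0 CPM at 4 d. A single read remained over the 4 d libraries against 1473 at 4 h, a ratio of 1259 with a 95% counting interval of 226 to 49760. The means at 0 h and 2 d were 70.1 and 1.18 CPM. ZBTB16, a transcriptional repressor that the t(11;17) translocation fuses to the retinoic acid receptor in some leukemias, fell from 27.3, 27.9 and 17.0 CPM to 0.104, 0.397 and 0.261 CPM. IGLL1, part of the surrogate light chain of pre-B cells, and MZB1, an endoplasmic reticulum protein of antibody-secreting cells, both fell by 6.47 on the log2 scale.

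Oncostatin M (OSM), a secreted relative of interleukin-6, went from 31.2, 39.5 and 48.0 CPM at 4 h to 0.831, 0.397 and 0.697 CPM at 4 d (-5.92 ± 0.37, adjusted p = 3.13e-08). The 0 h mean was 2.33 CPM, so the 4 h libraries were the high point of the 4 times. ASS1, which makes argininosuccinate on the way to arginine, fell from 84.6, 98.9 and 135 CPM to 1.45, 1.09 and 1.13 CPM (-6.43 ± 0.23, adjusted p = 7.38e-10). No library of one group came near the other in either gene. SPNS3, GAL, SLC39A14, IGFBP2, FAM46C, BCAT1 and the granule genes CTSG, CST7 and ELANE completed the 15 largest falls, which ended at -4.70. Just outside were FABP5, CITED4, PRSS57, ANO7 and MPP6. In all, 40 called genes had 3 reads or fewer over the 4 d libraries; DEFB1, a defensin, had 243 reads at 4 h and 2 at 4 d.

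**Figure D2:**
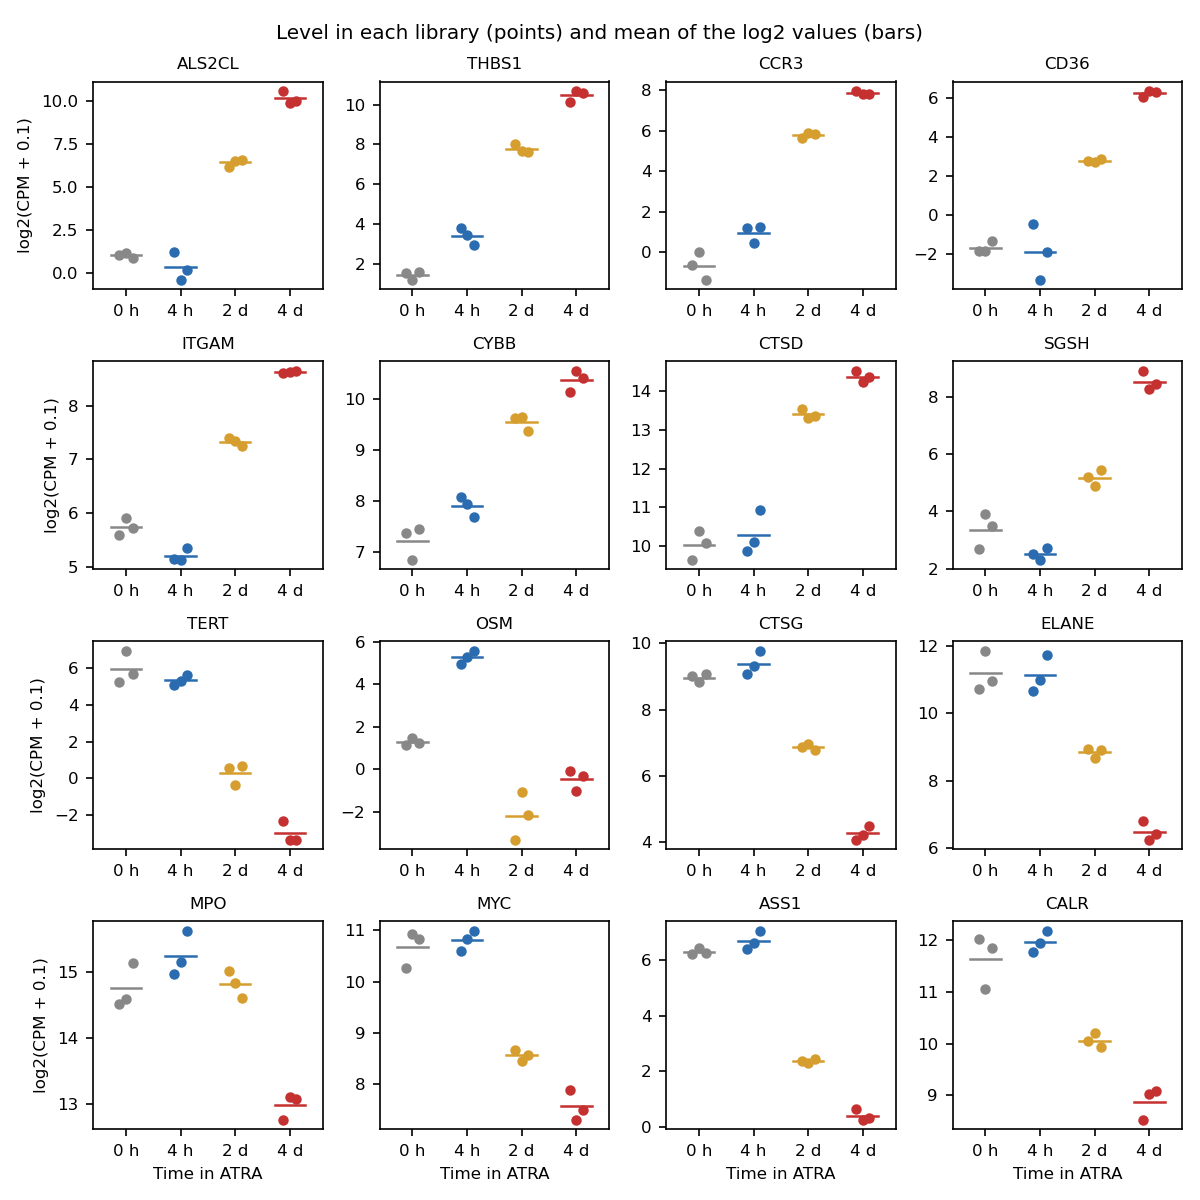
Levels as log2(CPM + 0.1) of 16 genes in each of the 12 libraries at 0 h, 4 h, 2 d and 4 d of ATRA (points), with the mean of the log2 values as a bar. In all 16 panels the 4 h and 4 d points do not overlap, and OSM is highest at 4 h.

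Granule genes moved in both directions. In the primary granule list, 11 of 20 tested members fell and 5 rose, and the median log2 fold change was -1.47. With the 20 most abundant genes of the libraries left out, some of which are members of the list, the median of the remaining members was 0.20. MPO, the myeloperoxidase that makes hypochlorous acid, was at 31983, 36094 and 50330 CPM at 4 h and at 6946, 8808 and 8624 CPM at 4 d (-2.28 ± 0.22, adjusted p = 1.70e-06). It was lower in every 4 d library, with a 2 d mean of 28977 CPM that lay within the range of the 0 h libraries. ELANE, neutrophil elastase, fell from 1632, 2039 and 3416 CPM to 111, 76.2 and 85.3 CPM (-4.70 ± 0.36, adjusted p = 1.71e-07). CTSG, cathepsin G, fell from 541, 635 and 879 CPM to 16.7, 18.6 and 22.5 CPM, and PRTN3, proteinase 3, fell by 4.36 on the log2 scale. In all 4 genes 4 h replicate 3 read highest of its group. Among the members that rose were GAA, HEXA, CD63 and BPI. GAA and HEXA encode lysosomal hydrolases and CD63 a lysosomal membrane protein, which azurophilic granules share with lysosomes, and BPI binds bacterial endotoxin. The defensin genes DEFA1 and DEFA3 had 0 reads in all libraries.

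In the list of secondary and tertiary granule genes, 17 of 25 tested members rose and 7 fell (median 1.61). The median difference from the 4 h mean, on the log2 scale, was 0.51 to 0.61 in the 0 h libraries and 1.29 to 1.59 in the 4 d libraries. The members that rose most were CEACAM1, an adhesion receptor, MMP25, a membrane-bound metalloproteinase, ORM1, an acute-phase glycoprotein, and FOLR3, a secreted folate binder. CEACAM1 stood at 17.1, 16.3 and 14.7 CPM at 4 h and at 505, 613 and 613 CPM at 4 d (5.17 ± 0.19, adjusted p = 7.38e-10). Secondary granule proteins were found in both directions. MMP8, the neutrophil collagenase, rose from 4.12 to 15.1 CPM on average (1.87 ± 0.27, adjusted p = 5.5e-05). Lactoferrin (LTF) was at 8.61, 8.06 and 11.4 CPM at 4 h and at 1.66, 2.48 and 2.87 CPM at 4 d, lower in every 4 d library (-1.98 ± 0.24, adjusted p = 1.23e-05). LCN2, the siderophore binder of these granules, was called lower at levels near the floor (0.549, 1.16 and 1.27 CPM against 0, 0.0991 and 0.174 CPM). LYZ, the lysozyme of several granule types, fell from 2314 ± 65.3 CPM to 523 ± 127 CPM (SD, n = 3). TCN1, which binds cobalamin, and CRISP3 were not tested, TCN1 with 23 reads at 4 h and 4 at 4 d and CRISP3 with 7 and 0.

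The phagocyte NADPH oxidase makes superoxide from oxygen and is assembled from a membrane pair (CYBB, CYBA) and cytosolic subunits, among them NCF1 and NCF4. Of 13 tested members of the list 11 rose and 0 fell (edgeR; 0 likewise with DESeq2, with limma-voom and at an unadjusted p under 0.05), and the median was 1.1997. CYBB, the catalytic subunit, was at 270, 244 and 204 CPM at 4 h and at 1131, 1508 and 1367 CPM at 4 d (2.48 ± 0.20, adjusted p = 3.33e-07). The groups were apart. NCF1 (2.79) has near-identical pseudogene copies, so its count is uncertain, and NOXA1 (3.62) is an activator of the NOX1 oxidase. RAC1 and VAV3 were not called. Without 4 h replicate 3, 1 member was called lower.

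Receptors through which neutrophils sense their surroundings formed the list with the highest median. Of 38 tested Fc, complement and pattern-recognition receptors 34 rose, 1 fell and 3 were not called, with a median of 2.40. The list was also higher at 0 h than at 4 h. Its median difference from the 4 h mean, on the log2 scale, was 0.61 to 0.76 in the 0 h libraries and 2.23 to 2.43 in the 4 d libraries. LILRB2, an inhibitory receptor for class I molecules, was at 8.70, 11.5 and 15.1 CPM at 4 h and at 530, 361 and 380 CPM at 4 d (5.17 ± 0.26, adjusted p = 6.32e-09). CR1, the receptor for complement fragments C3b and C4b, rose from 5.95, 4.86 and 4.41 CPM to 158, 270 and 236 CPM, and CLEC7A, which binds fungal glucans, from 2.20, 1.31 and 0.848 CPM to 70.8, 71.6 and 78.5 CPM. No library of the groups overlapped in these genes. NLRP3, an inflammasome sensor, was the member that fell (-0.90 ± 0.20, adjusted p = 0.00135); with 4 h replicate 3 and 4 d replicate 1 left out, 2 members fell. FCGR3A, the Fc receptor CD16a, which is also in the list of monocyte and macrophage markers, was not tested, with 8 reads at 4 h and 27 at 4 d.

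Of 24 tested chemoattractant receptors, 20 rose and 3 fell (median 1.93, and 1.26 over the members with any read when no filter on low counts was used). Beside CCR3, the members that rose most were HCAR2 and HCAR3, receptors for hydroxylated fatty acids, and P2RY13, a receptor for ADP. P2RY13 went from 6.96, 7.84 and 6.70 CPM to 99.0, 126 and 113 CPM (3.97 ± 0.18, adjusted p = 2.40e-09). P2RX7 and P2RY2, receptors for extracellular ATP, fell by 2.80 and 0.99 on the log2 scale. FPR1, the high-affinity receptor for bacterial formyl peptides, was at 3.39, 2.76 and 3.56 CPM at 4 h and at 21.7, 26.9 and 23.0 CPM at 4 d. CXCR1, a receptor for interleukin-8, had 11 and 22 reads and was not tested.

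Among integrins and adhesion molecules 12 of 26 rose, 3 fell and 11 were not called. ITGAM, the alpha chain CD11b of the complement receptor Mac-1, was at 35.4, 35.1 and 40.9 CPM at 4 h and at 390, 394 and 399 CPM at 4 d (3.41 ± 0.15, adjusted p = 2.58e-09). ITGAX (CD11c) rose by 4.75 ± 0.39 and ITGB7, the beta chain of gut-homing integrins, by 4.31 ± 0.20. ITGA5, the fibronectin receptor chain, fell from 176 ± 26 CPM to 73.7 ± 7.07 CPM. In the list of actin and motility genes 22 of 41 rose and 2 fell, led by LSP1, a leukocyte actin-binding protein (2.25 ± 0.24), and DOCK5, an exchange factor for RAC (2.05 ± 0.25). Of 16 S100 proteins and annexins 8 rose and 4 fell (2 without 4 h replicate 3 or without 4 d replicate 3). S100A8, a calprotectin subunit, rose from 466 ± 58.5 CPM to 1589 ± 90.9 CPM.

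Enzymes of prostaglandin and leukotriene synthesis rose in 12 of 17 tested cases, and 4 fell. PTGES, which makes prostaglandin E2, went from 5.49, 6.53 and 8.73 CPM to 201, 234 and 232 CPM (5.00 ± 0.21, adjusted p = 8.16e-09). PTGS1, cyclooxygenase-1, rose from 44.1, 47.5 and 50.02 CPM to 378, 349 and 373 CPM, and CYP4F3, which inactivates leukotriene B4, rose by 3.96 ± 0.26. The 4 d libraries lay above all 4 h libraries in each of the 3 genes. Among cytokines and chemokines 15 of 26 rose and 5 fell (3 without 4 d replicate 2). CXCL16 and CCL22 rose by 4.96 and 4.62, while TNF fell by 1.67 on the log2 scale from a mean of 2.17 CPM. Among cytokine and growth factor receptors 23 of 32 rose. CSF1R, the receptor for macrophage colony-stimulating factor, went from 2.93, 2.03 and 2.80 CPM to 60.9, 67.8 and 63.1 CPM (4.63 ± 0.18, adjusted p = 1.27e-09).

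Kinases and regulators of phagocyte signaling rose in 34 of 49 cases and fell in 5. RGS2, which shortens G-protein signals, rose from 1.70 ± 0.406 CPM to 63.1 ± 4.10 CPM, and its relative RGS16 fell from 6.99 ± 0.402 CPM to 0.392 ± 0.348 CPM. SOCS3, an inhibitor of cytokine signaling, rose by 3.39 ± 0.22, while DUSP2, a phosphatase of MAP kinases, fell by 3.15 on the log2 scale.

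Interferon-stimulated genes encode antiviral effectors that type I interferon switches on through STAT factors. Of 48 tested members 39 rose, 2 fell and 7 were not called (median 1.97). MX2, a GTPase that blocks viral nuclear entry, was at 2.84, 3.12 and 2.37 CPM at 4 h and at 64.8, 54.3 and 54.9 CPM at 4 d (4.37 ± 0.20, adjusted p = 2.51e-09). IFITM1, LGALS3BP and GBP4 rose by 5.07, 4.01 and 3.86 from levels under 1 CPM. ISG20 and HERC5 fell. ISG15, the ubiquitin-like modifier, was at 7.05, 5.59 and 10.6 CPM and at 17.9, 8.43 and 8.45 CPM, with overlapping groups (0.58 ± 0.35, adjusted p = 0.167), and IFIT1, RSAD2 and OAS2 had too few reads to test. In the antigen presentation list 13 of 20 rose and 0 fell (edgeR; 0 likewise with DESeq2, with limma-voom and at an unadjusted p under 0.05). CD1D, which presents lipids, went from 10.98 ± 0.263 CPM to 109 ± 10.1 CPM, and CD74, the class II invariant chain, from 6.17 ± 2.23 CPM to 29.7 ± 2.89 CPM.

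Lysosomal genes rose in 33 of 46 cases and fell in 2 (median 1.06), or in 1 when 4 h replicate 1, 2 or 3 or 4 d replicate 1 was left out. CTSD, the aspartic protease cathepsin D, was at 930, 1089 and 1928 CPM at 4 h and at 23657, 19244 and 21200 CPM at 4 d (4.02 ± 0.29, adjusted p = 1.02e-07). SGSH, which degrades heparan sulfate, rose from 5.59, 4.86 and 6.44 CPM to 479, 306 and 346 CPM (6.07 ± 0.33, adjusted p = 1.17e-08). Every 4 d library exceeded every 4 h library in both. TFEB, the transcription factor of lysosomal genes, rose from 13.4 ± 4.12 CPM to 120 ± 25.7 CPM. LIPA, lysosomal acid lipase, went the other way, from 22.5 ± 1.53 CPM to 2.13 ± 0.902 CPM. Among autophagy genes 11 of 29 rose (37.9%) and 3 fell (10.3%), against 29.7% and 30.8% of all tested genes. The largest rise was that of DAPK1, a death-associated kinase (4.798 ± 0.35).

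**Figure D3:**
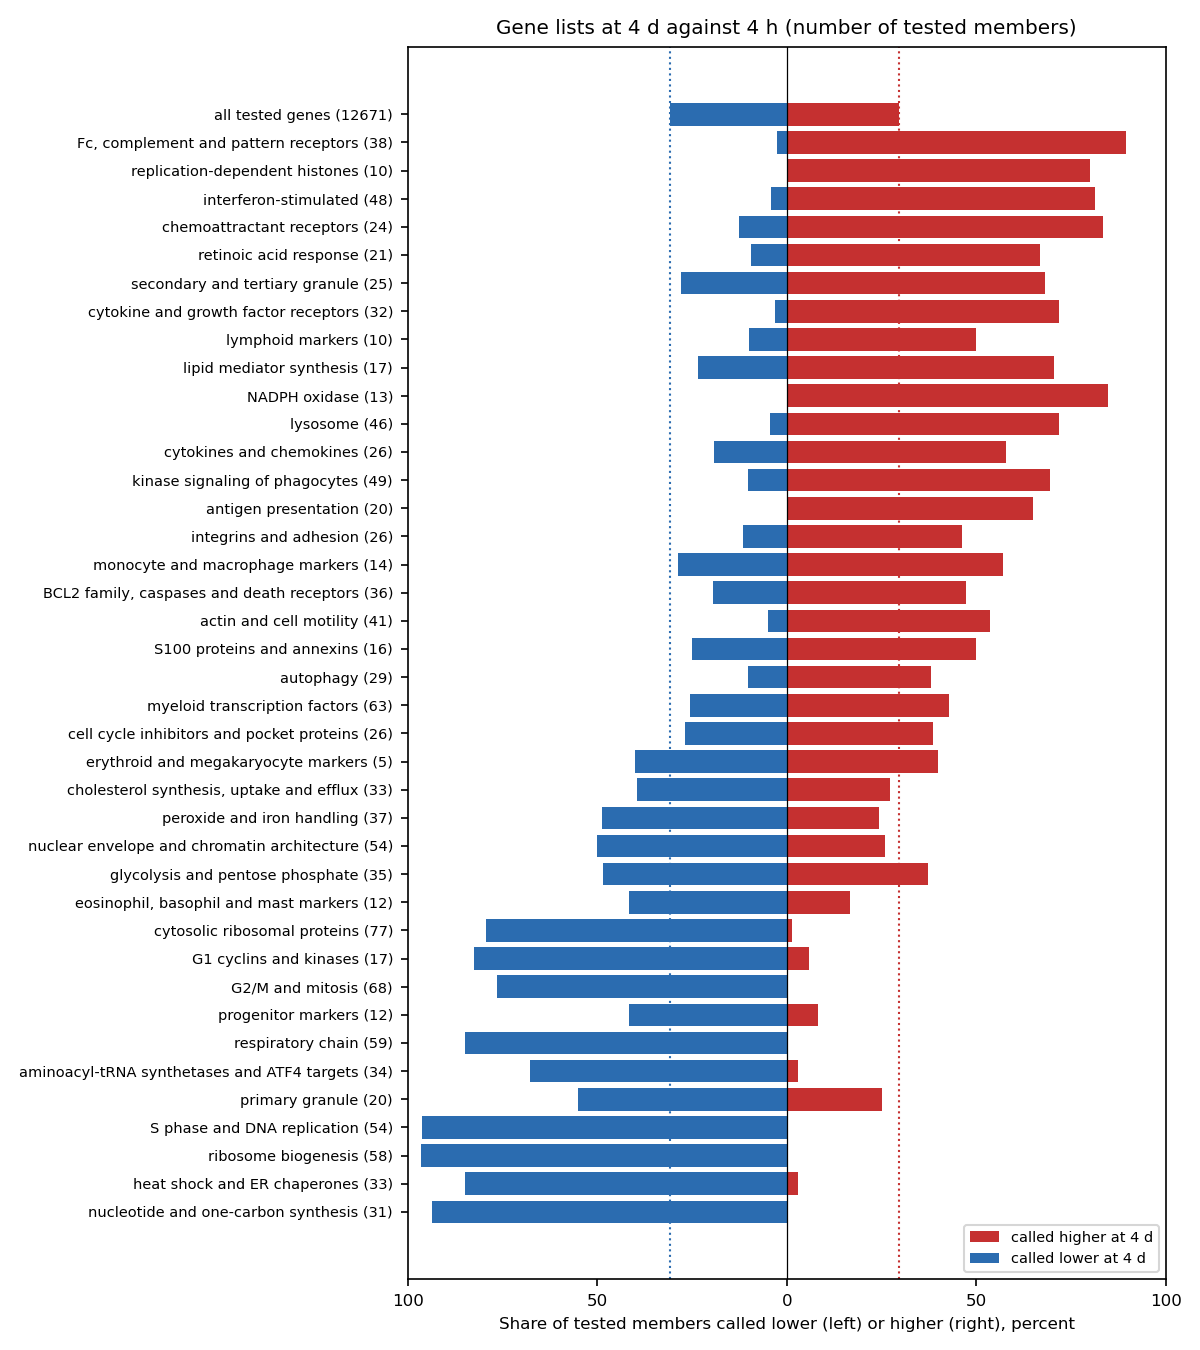
Share of the tested members of each gene list called lower (to the left, blue) or higher (to the right, red) at 4 d, in percent, with the number of tested members in brackets and the share over all 12671 tested genes as the top bar and dotted lines. Receptor, oxidase and interferon-stimulated lists extend to the right of the upper dotted line, and replication, ribosome biogenesis and nucleotide synthesis lists to the left of the lower one.

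Among 63 tested myeloid transcription factors 27 rose and 16 fell. BATF2, a basic leucine zipper factor that interferon can induce, went from 2.20, 1.60 and 2.20 CPM to 100, 72.6 and 93.6 CPM (5.48 ± 0.21, adjusted p = 4.93e-09). EGR3 and KLF2 rose by 3.80 and 3.46. MYC, which drives growth and division, fell from 1554, 1826 and 2036 CPM to 238, 159 and 182 CPM (-3.23 ± 0.22, adjusted p = 7.63e-08). The progenitor factors WT1 and GATA2 fell by 4.47 and 2.88 on the log2 scale. CEBPE, the C/EBP factor of late granulocyte maturation, was at 496, 609 and 956 CPM at 4 h and at 1055, 919 and 985 CPM at 4 d, with overlapping groups (0.52 ± 0.24, adjusted p = 0.0721). Its 4 h replicate 3 was the high value, and without that library the adjusted p was 0.00541. Leaving out any other single library of the 2 groups gave log2 fold changes of 0.34 to 0.57, with adjusted p of 0.0912 to 0.259. With GC and length offsets the log2 fold change was 0.26 (adjusted p = 0.0881). In all, 6 alternatives called CEBPE higher.

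Of 21 tested genes of retinoid response and metabolism 14 rose and 2 fell. CYP26A1, the cytochrome that breaks down retinoic acid, was at 0.458, 0.653 and 0.678 CPM at 4 h and at 47.9, 42.9 and 46.0 CPM at 4 d (6.22 ± 0.32, adjusted p = 3.22e-08). Its mean was 2.90 CPM at 2 d, so most of the rise lay after that time. TGM2, tissue transglutaminase, rose from 24.6, 22.1 and 29.4 CPM to 818, 1304 and 1119 CPM, and its 2 d mean was already 916 CPM. RXRA, the partner receptor, fell from 348 ± 54.9 CPM to 154 ± 5.03 CPM, and RDH10, which oxidises retinol, fell by 1.03 on the log2 scale.

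A list of 19 transcripts that gained within 4 h and one of 26 that lost within 4 h had been chosen on these same 4 h libraries. Their direction at 4 d is in part set by that choice, and their counts are a description. Among the early gains 13 rose further and 2 fell. HIC1 was at 1.55, 93.0, 603 and 793 CPM at 0 h, 4 h, 2 d and 4 d, ICAM1 at 1.93, 8.24, 37.7 and 68.4 CPM, and DHRS3 at 0, 5.74, 76.4 and 143 CPM. These 3 climbed at each time. PTGES, BATF2, CCR3, CYP26A1, CCL2, TGM2 and MLXIPL had the same order of means, with 2 d and 4 d nearly level in MLXIPL (27.0 and 27.7 CPM).

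FBP1 and SLC2A5, a gluconeogenic enzyme and a fructose carrier, were called higher with 2 d means slightly above those of 4 d (166 and 158 CPM, and 557 and 540 CPM). LBR, the lamin B receptor, was at 160, 371, 564 and 604 CPM, and its call (0.70 ± 0.21, adjusted p = 0.0114) was lost without 4 d replicate 2 (adjusted p = 0.0563). CD38, the NAD-consuming surface enzyme, was at 79.1, 69.9 and 49.8 CPM at 4 h and at 54.4, 103 and 93.0 CPM at 4 d. Its groups overlapped (0.34 ± 0.25, adjusted p = 0.263), and leaving out 1 library gave 0.14 (without 4 d replicate 2 or 4 h replicate 3) to 0.56 (without 4 d replicate 1). CD38 was called higher with 4 h replicate 1 and 4 d replicate 1 both left out (0.71, adjusted p = 0.0227) and with GC and length offsets (adjusted p = 0.0413). The groups of RUNX3 overlapped (0.05, adjusted p = 0.860). ID1, an inhibitor of bHLH factors, was at 0.953, 40.8, 11.9 and 3.10 CPM at the 4 times. EGR1 (23.4 and 17.3 CPM) and FOS (32.7 and 42.5 CPM) were not called between 4 h and 4 d. The FOS libraries did not overlap (0.38, adjusted p = 0.062), and 5 alternatives in scaling, filter or tool called the gene higher at adjusted p of 0.031 to 0.0499. EGR1 was called lower in both fits with GC and length offsets (adjusted p = 0.0023 and 0.0038).

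Among the 26 early losses 21 rose by 4 d and 2 fell. In 17 of the 26 the 4 d mean was above that of 0 h. CR1, with 12.7, 5.07, 47.5 and 221 CPM at the 4 times, ITGAX, with 48.7, 10.96, 92.7 and 295 CPM, and SLC2A3, a glucose carrier with 24.1, 11.5, 29.5 and 95.2 CPM, passed the 0 h mean by 2 d. FPR1 (10.4, 3.24, 5.54 and 23.9 CPM) and FCGR2A (15.7, 5.19, 11.8 and 29.7 CPM) passed it after 2 d. Others stayed under it: CD14, the endotoxin co-receptor, was at 22.5, 3.12, 4.10 and 15.03 CPM, and OLIG1 at 72.6, 11.3, 44.4 and 56.0 CPM.

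GATA2 (99.7, 43.8, 11.9 and 5.95 CPM) and RNASE2, an eosinophil granule ribonuclease (266, 130, 67.9 and 26.5 CPM), kept falling. EPX, SPON2 and IL2RG were not called between 4 h and 4 d, at means of 71.6 and 52.6, 8.28 and 5.35, and 81.5 and 86.1 CPM. EPX was called lower without 4 d replicate 2 (-0.65, adjusted p = 0.0416) and with GC and length offsets, and SPON2 with those offsets or with no filter on low counts. The other early losses rose with log2 fold changes between 1.18 for JUN and 6.89 for HSPA7. They were ITGAM, CLEC7A, MMP8, SLC11A1, C3AR1, S100A12, CLC, SREBF1, IL10RA, HIST1H2BK, H1F0, ATHL1, JUN and HSPA7.

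**Figure D4:**
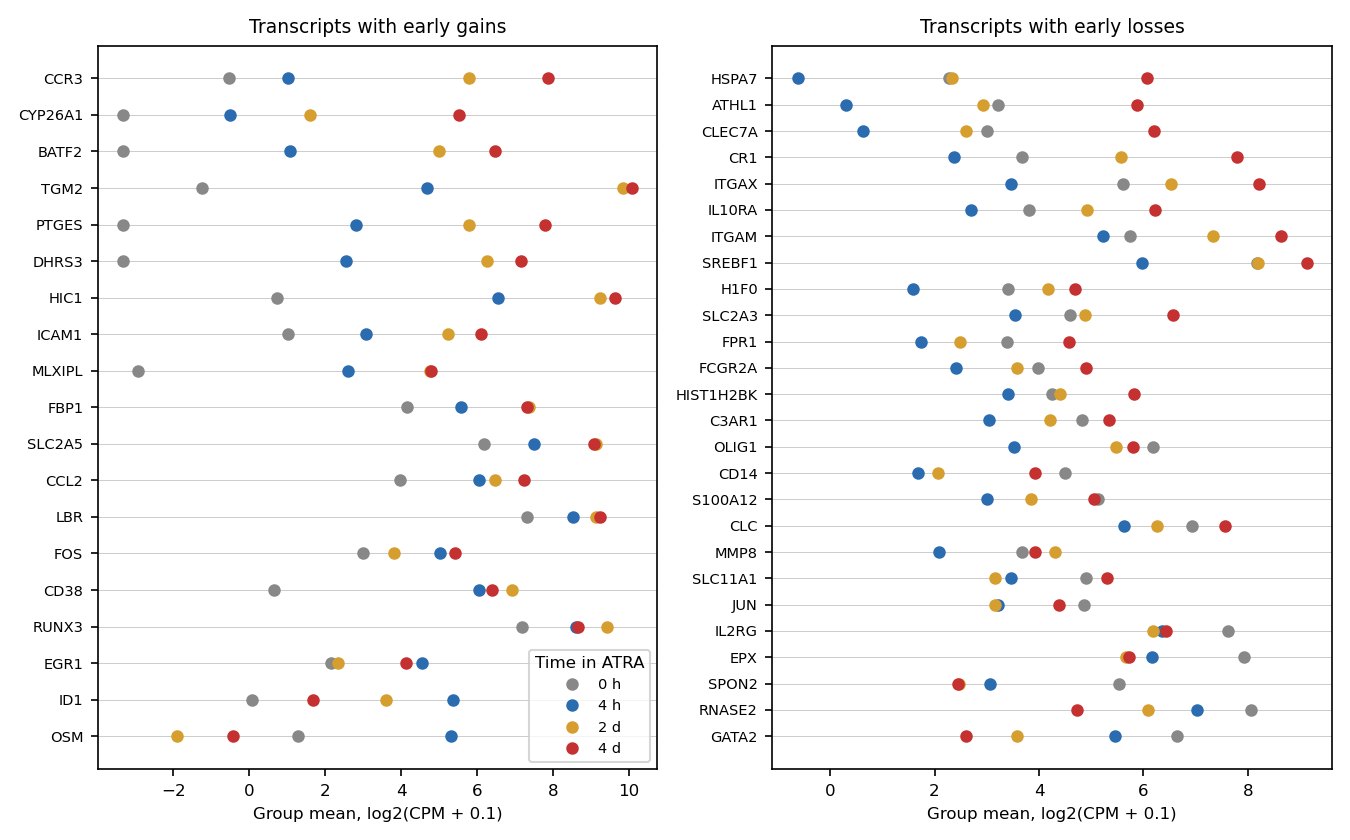
Group means as log2(CPM + 0.1) at 0 h, 4 h, 2 d and 4 d of 19 transcripts with early gains (left) and 26 with early losses (right), ordered by log2 fold change between 4 d and 4 h. OSM and ID1 at the foot of the left panel are highest at 4 h, and most points of the right panel are lowest at 4 h.

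Genes of the S phase, in which DNA is copied, fell almost without exception. Of 54 tested members 52 fell and 0 rose (edgeR; 0 likewise with DESeq2, with limma-voom and at an unadjusted p under 0.05), with a median of -1.57. POLE and CCNE2 were not called. UNG, which removes uracil from DNA, was at 111, 122 and 127 CPM at 4 h and at 14.9, 18.8 and 16.4 CPM at 4 d (-2.85 ± 0.18, adjusted p = 3.87e-08). GINS2, a subunit of the replicative helicase, fell from 28.3, 24.2 and 31.8 CPM to 3.53, 5.16 and 4.18 CPM, and RFC3, of the complex that loads the sliding clamp, from 93.2, 84.0 and 71.5 CPM to 10.2, 18.4 and 15.6 CPM. No library overlapped in these 3 genes.

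Genes of G2 phase and mitosis fell in 52 of 68 cases and rose in 0 (edgeR; 0 likewise with DESeq2, with limma-voom and at an unadjusted p under 0.05), with a median of -0.80. MAD2L1, of the spindle checkpoint, was at 104, 107 and 98.6 CPM at 4 h and at 18.6, 26.7 and 25.6 CPM at 4 d (-2.13 ± 0.19, adjusted p = 5.60e-07). CKS1B, a small partner of cyclin-dependent kinases, fell from 84.4, 82.6 and 111 CPM to 19.0, 36.8 and 34.6 CPM, and SPC25, of the outer kinetochore, from 19.2, 17.1 and 20.9 CPM to 4.88, 8.53 and 7.32 CPM. Among the 16 members that were not called, named after their values were seen, were MKI67, with 343, 321 and 273 CPM at 4 h and 280, 309 and 304 CPM at 4 d (-0.07 ± 0.16, adjusted p = 0.734), ASPM (-0.01 ± 0.21, adjusted p = 0.971) and ESPL1 (0.02, adjusted p = 0.95). The library medians of the list at 2 d were within -0.025 and 0.032 of the 4 h mean on the log2 scale, and those at 4 d were -0.88, -0.74 and -0.74. In a bulk sample, fewer cells in a phase and less RNA per cell cannot be told apart.

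The promoters of cell cycle genes often carry short words that pocket-protein complexes and E2F factors read. The windows of 3 G2/M genes and 2 S phase genes are shown. These genes were picked from called members whose windows held both G2/M words or an E2F word. The presence of the words in them was therefore set by the choice. The windows are RefSeq promoters on GRCh38.p14, from 250 bases before to 30 after the start site, 5′ to 3′ on the gene's strand. Capitals mark TTTGAA, the core of the cell cycle homology region, and CCAAT, read by NF-Y, or their reverse complements, in the G2/M genes, and TTTCCCGC or its reverse complement, an E2F word, in the S phase genes. MAD2L1 (chr4:120066819-120067098, minus strand), CKS1B (chr1:154974431-154974710, plus strand) and SPC25 (chr2:168890401-168890680, minus strand) are the G2/M genes. GINS2 (chr16:85688925-85689204, minus strand) and RFC3 (chr13:33817899-33818178, plus strand) are the S phase genes.
MAD2L1: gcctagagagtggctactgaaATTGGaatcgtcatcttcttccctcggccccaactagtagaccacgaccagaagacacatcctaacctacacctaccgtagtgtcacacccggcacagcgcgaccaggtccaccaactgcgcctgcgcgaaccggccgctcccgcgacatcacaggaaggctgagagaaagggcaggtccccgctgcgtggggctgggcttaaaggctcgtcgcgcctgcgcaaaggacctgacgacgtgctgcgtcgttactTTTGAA
CKS1B: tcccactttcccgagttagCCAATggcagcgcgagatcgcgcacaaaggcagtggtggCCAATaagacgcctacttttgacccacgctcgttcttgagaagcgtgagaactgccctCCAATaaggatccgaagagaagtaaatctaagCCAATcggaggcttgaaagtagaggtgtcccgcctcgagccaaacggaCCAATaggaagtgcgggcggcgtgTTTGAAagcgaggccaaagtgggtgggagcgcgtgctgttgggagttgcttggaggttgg
SPC25: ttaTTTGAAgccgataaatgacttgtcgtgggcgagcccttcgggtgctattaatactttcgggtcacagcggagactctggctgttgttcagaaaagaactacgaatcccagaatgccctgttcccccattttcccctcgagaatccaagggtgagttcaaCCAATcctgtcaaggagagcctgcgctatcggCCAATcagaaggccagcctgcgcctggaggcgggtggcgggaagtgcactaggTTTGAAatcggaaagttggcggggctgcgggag
GINS2: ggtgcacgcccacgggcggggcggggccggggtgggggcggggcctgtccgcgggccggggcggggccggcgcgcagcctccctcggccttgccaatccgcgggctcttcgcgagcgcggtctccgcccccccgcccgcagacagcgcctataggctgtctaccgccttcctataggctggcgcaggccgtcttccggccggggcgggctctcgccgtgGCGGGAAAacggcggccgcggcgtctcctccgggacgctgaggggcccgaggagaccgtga
RFC3: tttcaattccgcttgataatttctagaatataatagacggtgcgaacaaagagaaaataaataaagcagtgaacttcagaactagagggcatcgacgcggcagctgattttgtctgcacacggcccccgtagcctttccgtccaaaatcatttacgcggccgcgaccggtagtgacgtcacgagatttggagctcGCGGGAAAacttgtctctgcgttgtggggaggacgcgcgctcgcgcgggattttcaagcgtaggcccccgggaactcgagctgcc

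In CKS1B the TTTGAA word starts at -30 and 5 CCAAT words lie upstream of it, the nearest at -54. SPC25 has TTTGAA at -3 and -247 and CCAAT at -56 and -88. MAD2L1 has TTTGAA at 25 and CCAAT on the other strand at -229. The E2F word lies at -31 in GINS2 and at -55 in RFC3, on the strand opposite to the gene in each. Over windows of 300 bases (250 before to 50 after the start), read on both strands, TTTGAA was in 9.85% of 10038 tested genes with a promoter in the table and in 15.4% of all 27305 promoters. It was in 33 of 43 G2/M genes that fell (76.7%) and in 9 of 15 other tested G2/M genes (60%). CCAAT was in 36.7% of tested genes and in 35.7% of all promoters. It was in 33 of 43 G2/M genes that fell (76.7%) and in 9 of 15 other tested G2/M genes (60%). TTTCCCGC was in 2.63% of tested genes, in 1.66% of all promoters and in 11 of 46 S phase genes that fell (23.9%). The second E2F word, TTTGGCGC, was in 1.21%, 0.659% and 8 of 46 (17.4%). The 1 other tested S phase gene with a promoter held TTTGGCGC and lacked TTTCCCGC. The words do not overlap one another in the windows shown. G2/M genes are known to carry these words, so the shares describe the list and not the change.

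For the receptors that rose, the word GAGGAAGT, which the myeloid factor PU.1 reads, was in 2 of 28 promoters (7.14%), against 2.80% of tested genes and 2.54% of all promoters. The 2 were those of TYROBP, the adaptor DAP12 that carries signals of several activating receptors (chr19:35908266-35908545, minus strand), and TLR4, the endotoxin receptor (chr9:117704153-117704432, plus strand). They are shown as the members in which the word was found, in capitals as its reverse complement.
TYROBP: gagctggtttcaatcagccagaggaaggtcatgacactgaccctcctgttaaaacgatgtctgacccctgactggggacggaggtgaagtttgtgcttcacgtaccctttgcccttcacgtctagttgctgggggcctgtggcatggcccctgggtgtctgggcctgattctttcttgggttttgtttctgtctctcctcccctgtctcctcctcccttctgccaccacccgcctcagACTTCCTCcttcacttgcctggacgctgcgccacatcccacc
TLR4: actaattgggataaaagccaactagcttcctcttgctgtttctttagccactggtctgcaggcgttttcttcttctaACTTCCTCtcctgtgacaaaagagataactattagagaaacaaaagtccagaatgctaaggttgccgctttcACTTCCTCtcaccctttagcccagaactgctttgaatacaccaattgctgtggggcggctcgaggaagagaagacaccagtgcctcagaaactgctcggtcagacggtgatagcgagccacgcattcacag

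TYROBP was at 140, 175 and 265 CPM at 4 h and at 1196, 915 and 1014 CPM at 4 d (2.43 ± 0.24, adjusted p = 1.62e-06). TLR4 was at 33.5, 29.9 and 24.3 CPM and at 41.5, 61.7 and 64.5 CPM (0.93 ± 0.20, adjusted p = 0.00132). The groups were apart in both, by a wide margin in TYROBP and a narrow one in TLR4. PU.1 itself (SPI1), named after its values were seen, was at 497, 576 and 967 CPM and at 1539, 846 and 940 CPM, with overlapping groups (0.71 ± 0.34, adjusted p = 0.0885).

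Regulators of the cycle moved with these lists in part. Of 17 tested G1 cyclins, kinases and E2F partners 14 fell and 1 rose. CDK6 fell from 208, 187 and 137 CPM to 20.4, 35.3 and 32.1 CPM (-2.60 ± 0.27, adjusted p = 2.57e-06), and CDK4 and the phosphatase CDC25A fell by 1.90 and 2.29 on the log2 scale. CCND3, cyclin D3, was the member that rose, from 98.1 ± 27.7 CPM to 230 ± 25.4 CPM. Among cycle inhibitors and pocket proteins 10 of 26 rose (38.5%) and 7 fell (26.9%), against 29.7% and 30.8% of all tested genes. The antiproliferative genes BTG2 and BTG1 rose by 3.08 ± 0.19 and 2.32 ± 0.14, and RBL1, the pocket protein p107, fell by 1.25 on the log2 scale. CDKN2A was at 18.3, 22.7 and 34.0 CPM and at 35.3, 22.4 and 22.4 CPM (0.09 ± 0.28, adjusted p = 0.788).

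Genes that build ribosomes fell as a list. Of 58 tested ribosome biogenesis genes 56 fell and 0 rose (edgeR; 0 likewise with DESeq2, with limma-voom and at an unadjusted p under 0.05), with a median of -1.75. NPM3, a histone chaperone of the nucleolus, fell from 104, 123 and 160 CPM to 13.5, 11.4 and 13.3 CPM (-3.34 ± 0.19, adjusted p = 1.70e-08). NOLC1, a nucleolar phosphoprotein, fell from 274, 276 and 237 CPM to 30.9, 46.9 and 42.6 CPM. Every 4 d library lay below every 4 h library in both. Cytosolic ribosomal protein genes fell in 61 of 77 cases with a smaller median of -0.74. Their summed level was 98827 to 142700 CPM at 4 h and 67962 to 82803 CPM at 4 d. Many ribosomal protein genes have processed pseudogenes, which makes single counts uncertain.

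**Figure D5:**
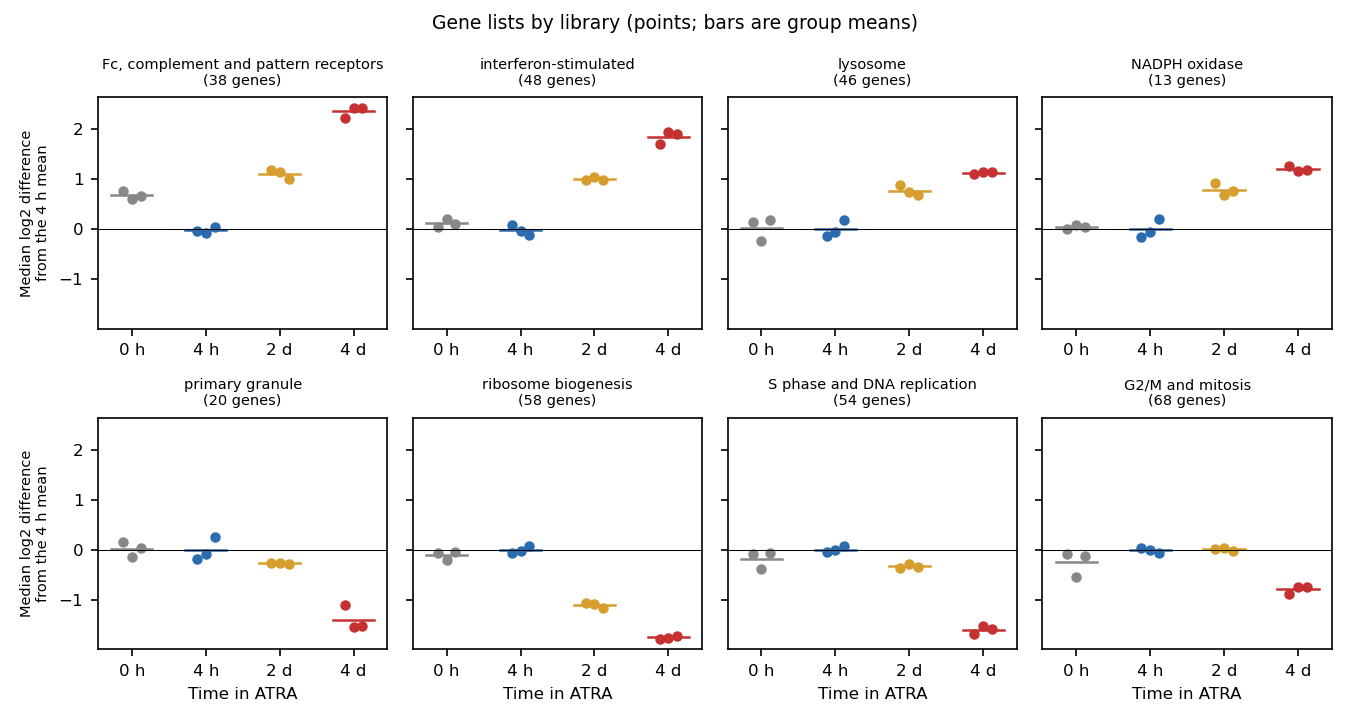
Median log2 difference from the 4 h mean over the tested members of 8 gene lists, for each of the 12 libraries (points) with group means as bars. Ribosome biogenesis is already low at 2 d, whereas the G2/M list is level with 4 h at 2 d and lies between -0.88 and -0.74 at 4 d.

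Nucleotide and one-carbon enzymes, which supply DNA and RNA synthesis, fell in 29 of 31 cases and rose in 0 (edgeR; 0 likewise with DESeq2, with limma-voom and at an unadjusted p under 0.05), with a median of -1.96. PHGDH, the first enzyme of serine synthesis, fell from 134, 153 and 222 CPM to 13.1, 9.81 and 10.6 CPM (-3.92 ± 0.22, adjusted p = 1.42e-08), and PSAT1, the next enzyme, from 122, 112 and 112 CPM to 5.61, 6.15 and 8.10 CPM. ODC1, which starts polyamine synthesis, fell from 516 ± 35.3 CPM to 40.0 ± 6.14 CPM. Aminoacyl-tRNA synthetases and ATF4 targets fell in 23 of 34 cases, among them the amino acid carrier SLC7A5 and the asparagine synthetase ASNS (falls of 3.71 and 2.35). The cystine carrier SLC7A11 was the 1 member that rose (of 3 without 4 h replicate 3 and 2 without 4 d replicate 2), from 40.8, 38.2 and 25.9 CPM to 94.3, 124 and 118 CPM.

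Chaperones of the cytosol and endoplasmic reticulum fell in 28 of 33 cases (median -1.79). CALR, the calcium-binding chaperone calreticulin, was at 3477, 3942 and 4655 CPM at 4 h and at 369, 521 and 539 CPM at 4 d (-3.08 ± 0.25, adjusted p = 3.56e-07). XBP1, the transcription factor of the unfolded protein response, fell from 246 ± 21.8 CPM to 41.1 ± 4.50 CPM. Nuclear-encoded respiratory chain genes fell in 50 of 59 cases and rose in 0 (edgeR; 0 likewise with DESeq2, with limma-voom and at an unadjusted p under 0.05). CYCS, cytochrome c, fell from 324, 312 and 314 CPM to 39.8, 73.6 and 74.1 CPM, with 4 d replicate 1 lowest.

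Glycolysis and pentose phosphate genes went both ways, with 13 of 35 higher and 17 lower. HK3, the hexokinase of myeloid cells, went from 50.9, 62.5 and 93.7 CPM to 1059, 525 and 580 CPM (3.39 ± 0.36, adjusted p = 3.02e-06), and HK1 and the carrier SLC2A3 rose by 2.19 and 3.05. LDHA, LDHB and ENO1, at the lower end of the pathway, fell by 2.31, 2.29 and 2.18 on the log2 scale. In the cholesterol list 9 of 33 rose (27.3%) and 13 fell (39.4%), against 29.7% and 30.8% of all tested genes. The efflux pump ABCA1 rose by 5.25 ± 0.41 and the synthesis enzyme NSDHL fell by 1.08 on the log2 scale.

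Of 37 peroxide and iron genes 9 rose and 18 fell. The peroxiredoxins PRDX1 and PRDX4 and the superoxide dismutase SOD1 fell by 3.31, 2.89 and 2.46 on the log2 scale, and FTH1, the ferritin heavy chain, rose from 97.1 ± 23.4 CPM to 248 ± 5.40 CPM. The FTH1 means at 0 h and 2 d were 214 and 99.3 CPM. Among nuclear envelope and chromatin genes 27 of 54 fell and 14 rose. The B-type lamin genes LMNB1 and LMNB2 fell from 201 ± 14.9 to 66.3 ± 10.1 CPM and from 376 ± 43.9 to 131 ± 16.1 CPM. PADI4, which converts arginine in histones to citrulline, rose from 50.8, 51.7 and 67.2 CPM to 276, 244 and 239 CPM. The linker histone H1F0, made outside S phase, rose by 3.14 ± 0.20.

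Of 36 histone genes of the replication-dependent clusters 10 had enough reads to test, of which 8 rose and 0 fell (edgeR; 0 likewise with DESeq2, with limma-voom and at an unadjusted p under 0.05). The summed level of all 36 was 36.2 to 42.8 CPM at 0 h, 22.2 to 27.9 CPM at 4 h and 100 to 111 CPM at 4 d. HIST1H2BK was at 8.43, 11.1 and 11.8 CPM and at 54.7, 55.0 and 60.0 CPM. Histone genes are near copies of each other, and most of their transcripts lack a poly(A) tail; whether the libraries were selected for poly(A) is not given in the sources used here. With a filter at a mean of 1 CPM the count that rose was 5.

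Genes of cell death also went both ways, with 17 of 36 higher and 7 lower. BCL2 fell from 54.3, 54.3 and 45.8 CPM to 7.27, 8.92 and 10.5 CPM (-2.53 ± 0.17, adjusted p = 6.88e-08). Its relative BCL2A1, also a survival protein, rose from 11.4, 9.36 and 11.5 CPM to 179, 145 and 155 CPM (3.89 ± 0.19, adjusted p = 4.96e-09). The pro-death members BBC3 and PMAIP1 rose by 2.41 and 1.96, as did the necroptosis kinase RIPK3 (2.64). BBC3 was at 4.41, 11.1 and 5.94 CPM at 0 h and at 14.2, 7.53 and 8.62 CPM at 4 d, which overlap, with a 4 h mean of 1.91 CPM.

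The labelled cell line was checked against its markers. MPO, ELANE, PRTN3, AZU1, CTSG, CD33 and MYC were present at 4 h, whereas CDKN2A, fixed as an absent marker, was read at the levels given above. Markers of other cell types moved in both directions, and their part in the receptor and interferon results was not tested. Of 28 monocyte and macrophage markers 14 were tested, 8 rose and 4 fell. The summed level of all 28 was 2806 to 2844 CPM at 4 h and 1338 to 1816 CPM at 4 d. Most of the sum at 4 h was LYZ, whose fall is given above, so the sum mainly follows that 1 gene. The median log2 fold change of the 14 tested markers was 0.78. VSIG4 went from 1.01, 1.09 and 1.02 CPM to 91.3, 84.7 and 92.0 CPM, CD68 rose by 2.76, and FCN1 fell by 3.29 on the log2 scale. The macrophage markers CD163, C1QA and MRC1 were untested, MRC1 with 0 reads in the 6 libraries.

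Of 21 eosinophil, basophil and mast cell markers 12 were tested, with 2 higher (CCR3 and CLC) and 5 lower. All 21 summed to 2849 to 4821 CPM at 4 h against 725 to 754 CPM at 4 d. PRG2, the eosinophil major basic protein, fell from 2560, 3111 and 4433 CPM to 263, 209 and 212 CPM (-3.88 ± 0.25, adjusted p = 4.20e-08), and the ribonucleases RNASE2 and RNASE3 fell as well, while CCR3 rose. Of 29 lymphoid markers 10 were tested, with 5 higher and 1 (IGLL1) lower. All 29 summed to 60.5 to 91.0 CPM at 4 h and 68.7 to 84.3 CPM at 4 d. Of 22 erythroid and megakaryocyte markers 5 were tested (2 higher, 2 lower), and HBA1, HBA2, HBG1, HBG2 and GP1BB had 0 reads in the 6 libraries. Of 20 progenitor markers 12 were tested, 5 fell, among them MYB (-1.44 ± 0.14), and 1, SOX4, rose (1.48 ± 0.16).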

How the data were processed

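RNA was sequenced from HL-60 cells at 4 times of ATRA, with 3 libraries each. The authors deposited a count of reads per gene for each library; the tools named for the series are FastQC, Trim Galore 0.6.7, HISAT2 2.1.0 and HTSeq 1.99.2 with build hg19, per the submitters' processing notes. Annotation, strand setting and kit: not given in the sources used here. Overlapping and antisense genes may therefore share reads, and near-identical copies may split them. HTSeq's summary lines were left out of library sizes. Reads that HTSeq assigned to no counted feature made up 13.965% to 28.1% of the total in the 6 compared libraries.

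Genes were kept by filterByExpr and scaled by TMM, and edgeR 4.0.16 in R 4.3.3 fitted 1 mean per time to all 12 libraries (glmQLFit, glmQLFTest), with the contrast 4 d minus 4 h. An adjusted p is that of edgeR's test after Benjamini-Hochberg correction, an SE is derived from the fold change and its F statistic, and a ± after a CPM is the SD of 3 libraries. The steps were tested on simulated counts. Intervals and floors (3 reads over a group for a count of 0) cover counting error only, and PCR copies cannot be told from separate molecules. Alternatives were other scalings, filters, thresholds and offsets, a replicate block, libraries left out, limma 3.58.1 and DESeq2 1.42.0. Motifs were searched in RefSeq promoters (GRCh38.p14), of which 10038 matched a tested symbol; the count files hold no coordinates.

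Genes were named as follows: the 15 largest rises and falls among called genes at 10 CPM or more whose libraries did not overlap, up to 4 called members of each list in each direction, the members of the early lists, and MPO, ELANE, CYBB, ITGAM, CD38, CYP26A1, CEBPE, MYC and CDKN2A. Some genes that the rule names are not reported here. Members that were not called or not tested, and some further list members, were named after their values were seen. The comparison and the lists were chosen with earlier results of these data known.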

Additional observations from a re-analysis of the deposited data

Results flagged for a closer look

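The share of reads that HTSeq assigned to no counted feature lies outside the gene counts compared above. Where in the genome these reads lay is not given. The lowest of the 4 d libraries had 21.2% of its reads there, more than the 20.8% of the highest library before ATRA. The other 4 d libraries had 23.3% and 22.1%. At 4 h the shares were 28.1%, 17.2% and 13.965%, so the 4 h and 4 d groups overlapped. The part of this share in the gene-level results was not tested. Groups of 3 libraries were not searched for outlying samples.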

How the results depend on the processing

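Under 19 alternatives with the same threshold the number of genes called ran from 6829 to 8554 around 7668, with 3278 to 3967 higher and 3531 to 4587 lower. With a required fold of at least 2 the count was 4894 (2341 lower), and at an adjusted p under 0.01 it was 6097. Leaving out 1 library at a time gave 6829 to 7442 genes, 3278 to 3600 higher and 3531 to 3846 lower. With GC and length offsets 3967 were higher and 4587 lower. Without a filter on low counts the median log2 fold change of 23266 genes was -0.55, against -0.0027. That set takes in genes with few reads, and 4 h replicate 1 had reads in 22265 genes, against 15245 to 15798 in the other compared libraries. The part of that library in the median was not tested.

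Of 291 named genes tested 282 were called. None changed direction in an alternative when it was called in the main fit or in that alternative. The direction of genes called in neither was not compared. A value was there for 281 to 291 genes in each of the 21 alternatives, of which the thresholds cannot change a direction. Under some alternative other than a threshold 18 of the called genes lost the call, and 6 of the 9 genes not called gained one (CD38, CEBPE, EGR1, EPX, FOS and SPON2). Over those alternatives the members that fell numbered 49 to 54 for S phase, 46 to 59 for G2/M, 54 to 58 for ribosome biogenesis and 28 to 29 for nucleotide synthesis. Members that rose numbered 33 to 35 for the Fc, complement and pattern receptors, 18 to 20 for chemoattractant receptors, 8 to 11 for the oxidase, 36 to 40 for interferon-stimulated genes and 29 to 34 for lysosomal genes. Of 52 list counts of 5 or more, 3 moved by over 1.5 times: histones that rose (8, and 5 with a filter at 1 CPM), cytokines that fell (5, and 3 with that filter or without 4 d replicate 2) and kinases that fell (5, and 8 with GC offsets); the cause was not tested. Of 798 medians of the 42 lists under these alternatives, 179 moved by more than the SD between libraries and 9, in 6 lists, had the other sign. Those lists were primary granule, glycolysis and the monocyte, eosinophil, lymphoid and erythroid markers.

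Whether the replicate numbers pair libraries across times is not given in the labels. The deviations of same-numbered libraries from their group means correlated at -0.616, 0.433 and -0.492 across genes. Those of 4 h replicate 3 and 4 d replicate 1, the libraries set apart on the second axis, correlated at 0.647. The deviations hold that axis too, so these correlations cannot tell whether the numbers mark shared cultures. With a replicate block 7117 genes were called, and 8189 with the block and GC and length offsets.

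Depth limits the low genes: with 9372996 to 13658177 gene reads in a library, a gene with a few reads, such as those of the secondary granule or macrophage lists, could not be told from absent.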
